A study of Mus musculus with 7 samples.

Results

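The genes described are 8 of the 20643 genes with a value in total RNA sequencing (RNA-seq) of mouse prospermatogonia, and they were chosen by symbol as genes of cholesterol synthesis and of the response to sterols. *Hmgcs1*, *Idi1*, *Fdps*, *Sqle*, *Cyp51* and *Dhcr7* encode enzymes of the pathway, *Srebf2* encodes its transcription factor and *Insig1* encodes the protein that holds this factor back. All 8 had a value and passed the filter on low values, which required 0.1 CPM (counts per M read pairs) in at least 2 libraries and removed no gene.

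Cholesterol is built from acetyl-CoA through the mevalonate pathway, which leads to farnesyl pyrophosphate and then, by way of squalene and lanosterol, to the sterols. SREBP2, the protein of *Srebf2*, is kept in the membrane of the endoplasmic reticulum by INSIG1 and SCAP while sterols are plentiful. When sterols fall, SCAP carries it to the Golgi, where proteases release its DNA-binding part, which switches on the synthesis enzymes, *Insig1* and *Srebf2* itself. Prospermatogonia are male fetal germ cells in mitotic arrest, and in the fetal testis the steroid-making Leydig cells are known for high use of cholesterol.

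The study inserted a transcription terminator cassette (Ter) before the *H19/Igf2* imprinting control region to stop a broad low-level transcript in these cells. There were 3 libraries from homozygous H19Ter+neo/H19Ter+neo fetuses (Ter+neo, replicates 5, 6 and 7), whose insertion also holds the Pgkneo selection cassette, 2 from homozygous H19Ter/H19Ter fetuses (Ter, replicates 3 and 4), from which Pgkneo was removed by an Hprt-Cre line, and 2 from WT fetuses (replicates 1 and 2). The labels give 15 dpc (days postcoitum) in the source name and 15.5 dpc in the protocol. EGFP+ cells were sorted from trypsin-digested fetal testes by means of the *Pou5f1*-driven EGFP transgene of the TgOG2 line, which has a mixed B6;CBA background. Both mutant alleles go back to chimeras of 1 ES cell line of 129 origin, several testes could be digested together, and the sources used here give neither the litter of each library nor the parentage of the WT fetuses. P-values measure the spread between these libraries.

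The libraries held 84.1, 86.3 and 87.3 M read pairs in Ter+neo, 51.2 and 37.5 M in Ter, and 45.1 and 45.9 M in WT, so that depth moved with genotype, and its part in the results was not tested. All 8 genes were well covered, with 29285 to 54517 read pairs over the 8 genes in a library. Markers of male fetal germ cells, 11 of 11 with a value, summed to 4194 to 4373 CPM in Ter+neo, 3641 to 3737 CPM in Ter and 3921 to 4156 CPM in WT. Of these 11, 4 were higher and 3 lower in Ter+neo against WT (63.6%, beside 54.4% of all genes that passed in either direction). In Ter against WT 2 were higher and 4 lower (54.5%, beside 25.1%). In Ter+neo against Ter 4 were higher and 2 lower (54.5%, beside 27.7%). Markers of other testis cells were low but above 0 in every library. The 5 of 6 Leydig cell markers with a value summed to 5.46 to 29.8 CPM in Ter+neo, 11.1 to 26.0 CPM in Ter and 11.6 to 15.2 CPM in WT, and none passed the test in any comparison. The 10 interstitial and peritubular markers summed to 46.8 to 75.9 CPM in Ter+neo, 58.8 to 110.0 CPM in Ter and 48.4 to 58.4 CPM in WT. The 6 of 7 Sertoli cell markers with a value summed to 15.8 to 20.3 CPM in Ter+neo, 22.3 to 25.7 CPM in Ter and 17.9 to 18.3 CPM in WT, and the 7 endothelial markers to 56.0 to 59.7 CPM in Ter+neo, 63.9 to 67.1 CPM in Ter and 62.0 to 69.1 CPM in WT. The 2 of 6 macrophage and leukocyte markers with a value summed to 1.51 to 2.77 CPM in Ter+neo, 1.13 to 1.29 CPM in Ter and 1.24 to 1.79 CPM in WT, and the 1 of 6 erythroid markers with a value, *Alas2*, had 4.34 to 5.82 CPM in Ter+neo, 2.66 to 3.53 CPM in Ter and 1.66 to 2.75 CPM in WT. In Ter+neo against WT, where 27.7% of all genes passed higher and 26.7% lower, 5 endothelial markers were higher and 1 lower. There, 1 Sertoli marker was higher and 2 were lower, and 2 interstitial markers were higher and 1 lower. *Alas2* and 1 macrophage marker, *Adgre1*, were higher too, the latter at a low level of 0.09 to 0.76 CPM over the libraries. In Ter against WT, where 14.1% passed higher and 11.0% lower, 2 endothelial markers were higher and 1 lower, and 2 Sertoli markers and 1 interstitial marker were higher. In Ter+neo against Ter, where 12.5% passed higher and 15.2% lower, *Alas2* was higher and 1 endothelial, 1 Sertoli and 1 interstitial marker were lower. Of 10 genes of the stress of tissue dissociation, 2 were lower in Ter+neo against WT, none passed in Ter against WT and 1 was higher in Ter+neo against Ter. The part of these cells and of such stress in the results was not tested. In bulk RNA, fewer cells of a type and less RNA per cell cannot be told apart.

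The letters before the start of *Srebf2*, *Hmgcs1* and *Insig1* are shown because the pathway is known to be switched on through short elements in such sequence, and these 3 genes differed in their calls in Ter+neo against WT, where *Srebf2* was lower, *Insig1* was higher and *Hmgcs1* did not pass. RefSeq promoters (GRCm38.p6) matched 6 of the 8 genes, all but *Sqle* and *Fdps*. The stretches run 5′ to 3′ along the gene and end before its first annotated exon. They lie at chr15:82147019-82147180 (plus strand) for *Srebf2*, chr13:119690101-119690350 (plus strand) for *Hmgcs1* and chr5:28071162-28071362 (plus strand) for *Insig1*. Capitals mark TCACCCCA, with the C that follows it in *Hmgcs1*, and CCAAT on either strand (ATTGG).
Srebf2: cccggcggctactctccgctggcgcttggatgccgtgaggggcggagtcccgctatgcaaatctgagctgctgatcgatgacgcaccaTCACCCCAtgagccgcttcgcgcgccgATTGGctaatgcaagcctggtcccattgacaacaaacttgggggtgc
Hmgcs1: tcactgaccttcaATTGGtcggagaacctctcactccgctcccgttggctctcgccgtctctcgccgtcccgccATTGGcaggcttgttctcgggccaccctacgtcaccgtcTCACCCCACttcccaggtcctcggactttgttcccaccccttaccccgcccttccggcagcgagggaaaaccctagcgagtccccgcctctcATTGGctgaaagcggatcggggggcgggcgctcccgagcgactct
Insig1: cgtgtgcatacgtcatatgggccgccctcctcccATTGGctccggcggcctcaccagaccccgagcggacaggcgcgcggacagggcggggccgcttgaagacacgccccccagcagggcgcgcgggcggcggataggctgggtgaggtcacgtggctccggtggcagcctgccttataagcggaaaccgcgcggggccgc

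Both strands of the 250 bases before each RefSeq start were searched. The sterol regulatory element written as TCACNCCAC was found before *Hmgcs1*, beginning at position -137 from the start, and in 1.05% of all 32851 promoters. Its shorter form CACNCCAC, which overlaps it, was found before *Hmgcs1* and, on the other strand at -9 and so past the stretch shown, before *Insig1*, against 5.29% of all promoters. TCACCCCA, which was chosen after the windows were seen and overlaps both, was found before *Hmgcs1* and, at -162, before *Srebf2*, against 1.34% of all promoters. The CCAAT box, the letters bound by the factor NF-Y, was found before each of the 6 genes, against 33.8% of all promoters. In *Dhcr7*, which has 3 RefSeq starts, it was before 1 of them. The GC box GGGCGG was found before each of the 6 genes too, against 32.7%. The E-box CACGTG was found before *Insig1* and *Dhcr7*, against 6.02%. In *Dhcr7* the GC box was not before every start, and the E-box was before 1 of the 3. The shares of all promoters count each start, whereas a gene was counted here if any of its starts matched. These matches describe letters and not binding.

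Levels between genes were compared as CPM per kb of annotated exon. In Ter+neo the order was *Insig1* (36.3 ± 3.47), *Hmgcs1* (31.7 ± 2.06), *Srebf2* (23.6 ± 0.818), *Dhcr7* (15.4 ± 0.428), *Sqle* (9.91 ± 1.20), *Idi1* (5.40 ± 0.613), *Cyp51* (4.83 ± 0.727) and *Fdps* (2.24 ± 0.0271 CPM per kb, SD, n = 3). In Ter, *Hmgcs1* (38.7 ± 0.0661), *Insig1* (36.1 ± 1.45) and *Srebf2* (34.8 ± 0.977 CPM per kb, SD, n = 2) stood at the top. In WT these were *Hmgcs1* (35.9 ± 2.90), *Srebf2* (33.0 ± 0.640) and *Insig1* (29.5 ± 0.152 CPM per kb, SD, n = 2). *Dhcr7*, *Sqle* and *Fdps* kept their places in this order in all 3 genotypes, next below the top 3 genes for *Dhcr7* and *Sqle* and last for *Fdps*. Neighbours whose libraries overlapped were *Insig1* and *Hmgcs1* in Ter+neo, *Insig1* and *Srebf2* in Ter, and *Idi1* and *Cyp51* in both mutants, and no neighbours overlapped in WT. *Srebf2* thus stood apart below the *Hmgcs1* and *Insig1* levels in Ter+neo, whereas in WT it lay between them. Summed over the 8 genes the level was 646, 588 and 632 CPM in Ter+neo, 750 and 755 CPM in Ter, and 710 and 746 CPM in WT, so that the 3 Ter+neo libraries were below the others. This sum is weighted to the most abundant genes, and *Srebf2* alone averaged 170 CPM in Ter+neo, 250 CPM in Ter and 237 CPM in WT. The means of *Insig1*, *Idi1* and *Fdps* were not lower in Ter+neo than in WT.

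**Figure D1:**
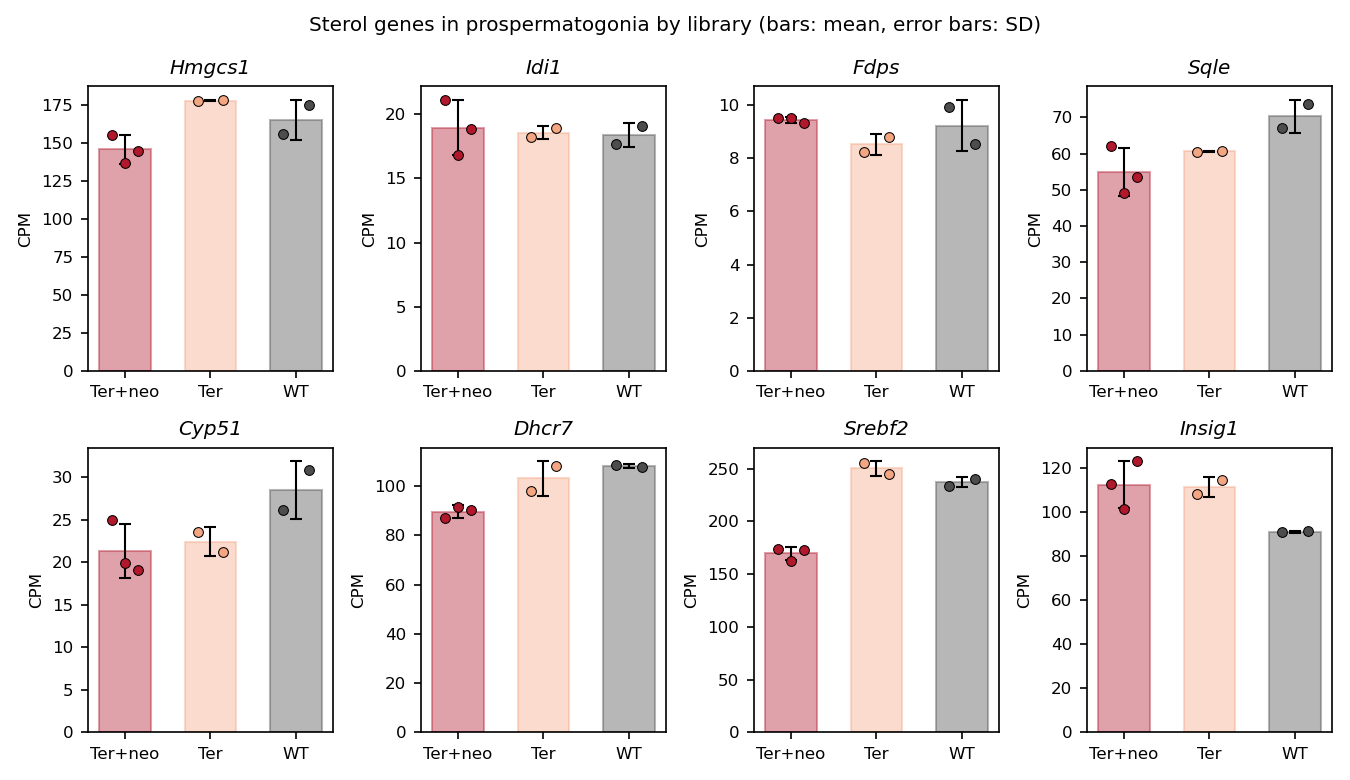
Level of each gene in CPM (counts per M read pairs, vertical axes from 0) in the 3 Ter+neo, 2 Ter and 2 WT libraries (points), with the mean (bars) and SD (error bars). *Srebf2* lies between 163 and 173 CPM in Ter+neo libraries, below all Ter and WT libraries, and *Insig1* lies between 90.8 and 91.4 CPM in WT libraries, below all mutant libraries.

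Among the 3 pairwise comparisons, most calls among the 8 genes were made between Ter+neo and WT. *Srebf2*, *Sqle*, *Cyp51* and *Dhcr7* were lower in Ter+neo prospermatogonia, by 17.1% to 28.5%, and *Insig1* was higher by 23.0%. *Hmgcs1*, *Idi1* and *Fdps* did not pass the test. These are 4 lower and 1 higher of 8, against 26.7% and 27.7% of all 20643 genes (54.4% in either direction), tested with limma at an adjusted p under 0.05. Among the 9597 genes expressed at or above the lowest of the 8, 38.5% passed lower and 59.8% in either direction. All Ter+neo libraries lay above both WT libraries for 1 gene and below them for 5 genes, against 36.6% and 35.2% of all genes. None of the 8 passed in any comparison when limma was asked for a change of over 1.5-fold. The median log2 fold change of the 8 genes was -0.23, beside 0.015 over all genes.

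Fewer of the 8 genes passed in Ter against WT. *Insig1* was higher by 22.3% and no gene of the 8 was lower, which is 1 higher and 0 lower of 8, against 14.1% and 11.0% of all genes (25.1% in either direction). At an unadjusted p under 0.05 *Cyp51* was the only other of the 8. Among the genes expressed at or above the lowest of the 8, 18.0% passed lower and 27.9% in either direction. All Ter libraries lay above both WT libraries for 3 genes and below them for 2 genes, against 32.4% and 35.0% of all genes. The median log2 fold change was -0.028, beside -0.0081 over all genes. In Ter+neo against Ter, *Srebf2*, *Hmgcs1* and *Dhcr7* were lower and no gene was higher, which is 3 lower and 0 higher of 8, against 15.2% and 12.5% of all genes (27.7% in either direction), with a median log2 fold change of -0.11 beside 0.0097. Among the genes expressed at or above the lowest of the 8, 22.1% passed lower and 38.3% in either direction. All Ter+neo libraries lay above both Ter libraries for 1 gene (*Fdps*) and below them for 3 genes, against 28.2% and 28.1% of all genes. With every library rescaled to the same total, the share of all calls that were higher was 72.5% in place of 56.2% in Ter against WT and 32.0% in place of 45.3% in Ter+neo against Ter, and no call among the 8 genes changed direction. Both comparisons with WT share the WT libraries, and each mutant is also part of the third. The mean of both mutants against WT gave 1 higher (*Insig1*) and 4 lower (*Sqle*, *Cyp51*, *Dhcr7* and *Srebf2*), against 23.5% and 23.0% of all genes (46.5% in either direction), and 0 of the 8 passed without WT replicate 2. For *Srebf2* this mean joins values of opposite sign, -0.48 in Ter+neo and 0.08 in Ter, and the mutant libraries overlapped those of WT.

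**Figure D2:**
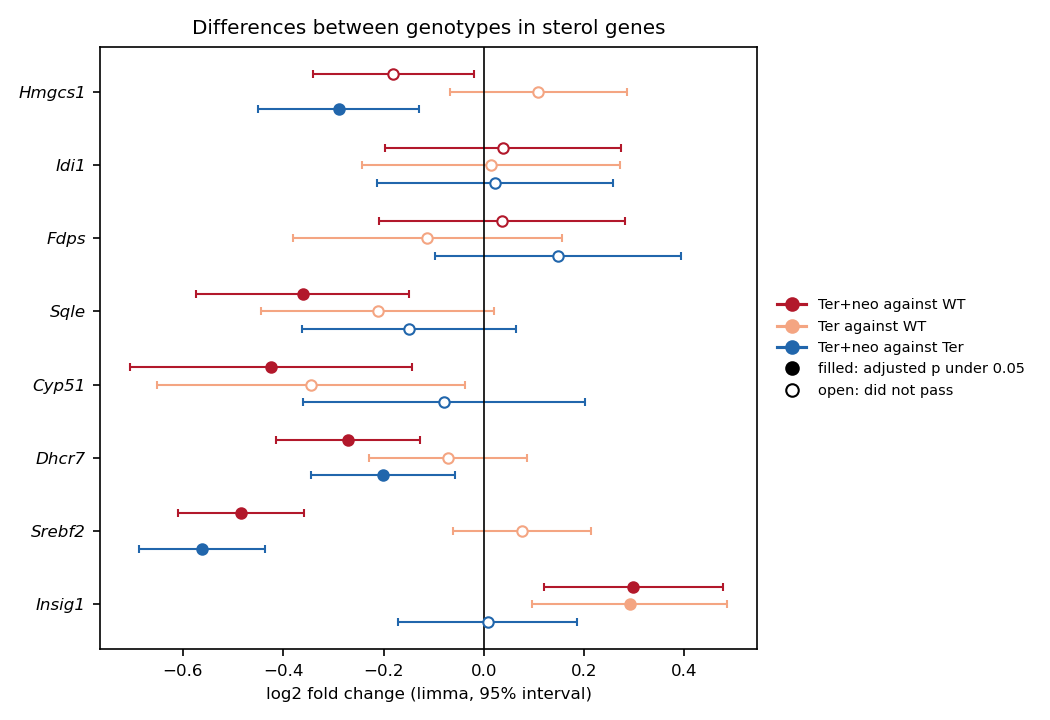
Log2 fold change with its 95% interval (limma, horizontal axis) for each gene in the comparisons of Ter+neo with WT, Ter with WT, and Ter+neo with Ter. Filled points passed at an adjusted p under 0.05: *Srebf2* sits at -0.48 and -0.56 in both comparisons of Ter+neo, and *Insig1* at 0.30 and 0.29 in both comparisons with WT.

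*Srebf2* (ENSMUSG00000022463, chr15:82147181-82205379, plus strand, GRCm38) encodes SREBP2, the main activator of the pathway. Its level was 173, 163 and 173 CPM in Ter+neo, against 255 and 245 CPM in Ter and 234 and 240 CPM in WT. The Ter+neo libraries were below all others, and the Ter libraries were above those of WT. The log2 fold change of Ter+neo against WT was -0.48 (SE 0.06, limma adjusted p = 8.47e-05). Against Ter it was -0.56 (SE 0.06, limma adjusted p = 0.000176). Ter against WT, at 0.08 (95% interval -0.06 to 0.21, limma adjusted p = 0.386), did not pass. Both Ter+neo calls held without each library in turn. After correction for GC content and gene length, the value against Ter was -0.36 (limma adjusted p = 0.00246). *Mir33*, whose microRNA is known to act on cholesterol export, lies within an intron of *Srebf2* and has no value in the table.

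*Insig1* (ENSMUSG00000045294, chr5:28071363-28078662, plus strand) encodes the endoplasmic reticulum protein that retains the SREBP and SCAP complex and is itself a target of SREBP. Its level was 113, 102 and 123 CPM in Ter+neo, 108 and 115 CPM in Ter, and 90.8 and 91.4 CPM in WT. All 5 mutant libraries were above both WT libraries, and the libraries of the mutants overlapped each other. The log2 fold change against WT was 0.30 in Ter+neo (SE 0.08, limma adjusted p = 0.0097) and 0.29 in Ter (SE 0.09, limma adjusted p = 0.0362), while Ter+neo against Ter was 0.01 (95% interval -0.17 to 0.19). The Ter call was lost without any 1 of the Ter and WT libraries (0.25 to 0.33, limma adjusted p = 0.0908 to 0.19), and the Ter+neo call without WT replicate 1 or 2 (limma adjusted p = 0.0555 and 0.057). After correction for GC content and gene length, the values were 0.10 in Ter+neo (limma adjusted p = 0.303) and 0.16 in Ter (limma adjusted p = 0.177), and neither passed.

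*Hmgcs1* (ENSMUSG00000093930, chr13:119690379-119708260, plus strand) encodes the cytosolic HMG-CoA synthase, which acts early in the pathway. Its level was 155, 137 and 145 CPM in Ter+neo, 177.5 and 177.9 CPM in Ter, and 156 and 175 CPM in WT. The Ter libraries were the highest, and the Ter+neo libraries lay below both other genotypes, though the highest of them (155.4 CPM) all but met the lowest of WT (155.7 CPM). Ter+neo against Ter was -0.29 on the log2 scale (SE 0.07, limma adjusted p = 0.015), a call that was lost without Ter replicate 3 or 4 (limma adjusted p = 0.0933 and 0.0873). Ter+neo against WT was -0.18 (SE 0.07, limma adjusted p = 0.0558) and Ter against WT was 0.11 (limma adjusted p = 0.337), and neither passed. Ter+neo against WT stood near the threshold, and it passed after correction for GC content and gene length (-0.38, limma adjusted p = 0.00107), with the same total per library, with median-ratio scaling, without Ter+neo replicate 5 and without WT replicate 1 (-0.17 to -0.26, limma adjusted p = 0.0181 to 0.0494 in these 4). Without WT replicate 2 it was -0.098 (limma adjusted p = 0.406). The antisense gene *Gm48342*, with no value in the table, shares 557 exon bases with *Hmgcs1*, and the sources used here do not state the strand setting of the counting.

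*Idi1* and *Fdps* act later in the pathway than *Hmgcs1*. *Idi1* is the isomerase of the 5-carbon units and *Fdps* the synthase that joins them into farnesyl pyrophosphate. *Idi1* (ENSMUSG00000058258, chr13:8885501-8892451, plus strand) had 21.1, 16.8 and 18.8 CPM in Ter+neo, 18.2 and 18.9 CPM in Ter, and 17.7 and 19.05 CPM in WT. *Fdps* (ENSMUSG00000059743, chr3:89093588-89101959, minus strand) had 9.49, 9.50 and 9.30 CPM in Ter+neo, 8.23 and 8.80 CPM in Ter, and 9.92 and 8.54 CPM in WT. Neither passed in any comparison, and for both the mutant libraries overlapped those of WT. The 95% intervals of the log2 fold change of Ter+neo against WT were -0.20 to 0.27 for *Idi1* and -0.21 to 0.28 for *Fdps*, and those of Ter against WT were -0.24 to 0.27 and -0.38 to 0.16. Both levels are uncertain as measures of these genes, since reads that fit near-identical copies may be dropped or counted for a copy. Annotated genes with at least 95% identity over 100 bases or more number 6 for *Fdps* and 3 for *Idi1*, most of them processed pseudogenes, and *Gm43738* shares 1124 exon bases with *Fdps* on its own strand. *Gm48574*, which has a value, shares 323 exon bases with *Idi1* on the opposite strand.

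*Sqle* and *Cyp51* act on the way from squalene to the sterols. *Sqle* (ENSMUSG00000022351, chr15:59315077-59331192, plus strand), the squalene epoxidase, had 62.2, 49.1 and 53.5 CPM in Ter+neo, 60.6 and 60.7 CPM in Ter, and 67.1 and 73.6 CPM in WT. All mutant libraries were below both WT libraries. Its log2 fold change was -0.36 in Ter+neo against WT (SE 0.10, limma adjusted p = 0.00919), and -0.21 in Ter against WT (limma adjusted p = 0.163), which did not pass. *Cyp51* (ENSMUSG00000001467, chr5:4081145-4104746, minus strand), the lanosterol demethylase, had 25.01, 19.9 and 19.1 CPM in Ter+neo, 23.6 and 21.2 CPM in Ter, and 26.1 and 30.9 CPM in WT. Again all mutant libraries were below both WT libraries. Its log2 fold change was -0.42 in Ter+neo against WT (SE 0.13, limma adjusted p = 0.0163), and -0.34 in Ter against WT (limma adjusted p = 0.0929), which did not pass. Without WT replicate 2, the higher WT library for both genes, the Ter+neo calls were lost (*Sqle* -0.29, limma adjusted p = 0.098, and *Cyp51* -0.30, limma adjusted p = 0.168). After correction for GC content and gene length, both genes passed in Ter against WT (*Sqle* -0.35, limma adjusted p = 0.0265, and *Cyp51* -0.46, limma adjusted p = 0.0258), and both also passed when Ter and WT alone were fitted (limma adjusted p = 0.0384 and 0.0186). Ter+neo against Ter did not pass for *Sqle* (95% interval -0.36 to 0.06) or *Cyp51* (95% interval -0.36 to 0.20). *Akap9* shares 166 exon bases with *Cyp51* on the opposite strand.

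*Dhcr7* (ENSMUSG00000058454, chr7:143823145-143848410, plus strand) encodes the reductase that makes cholesterol in the last step of the pathway. Its level was 86.8, 91.7 and 90.4 CPM in Ter+neo, 98.1 and 108 CPM in Ter, and 109 and 108 CPM in WT. The Ter+neo libraries were below all others, and Ter and WT overlapped. Its log2 fold change was -0.27 in Ter+neo against WT (SE 0.06, limma adjusted p = 0.00527), and this call held without each library in turn. Against Ter it was -0.20 (SE 0.06, limma adjusted p = 0.0423), a call that was lost without any 1 of the 7 libraries (-0.13 to -0.27, limma adjusted p = 0.0581 to 0.309), and after correction for GC content and gene length (-0.07, limma adjusted p = 0.572). Ter against WT was -0.07 (limma adjusted p = 0.491). *Dhcr7* lies 1.24 Mb from the terminator insertion on chromosome 7, so in homozygous mutants an effect of the insertion and one of sequence linked to it cannot be told apart.

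**Figure D3:**
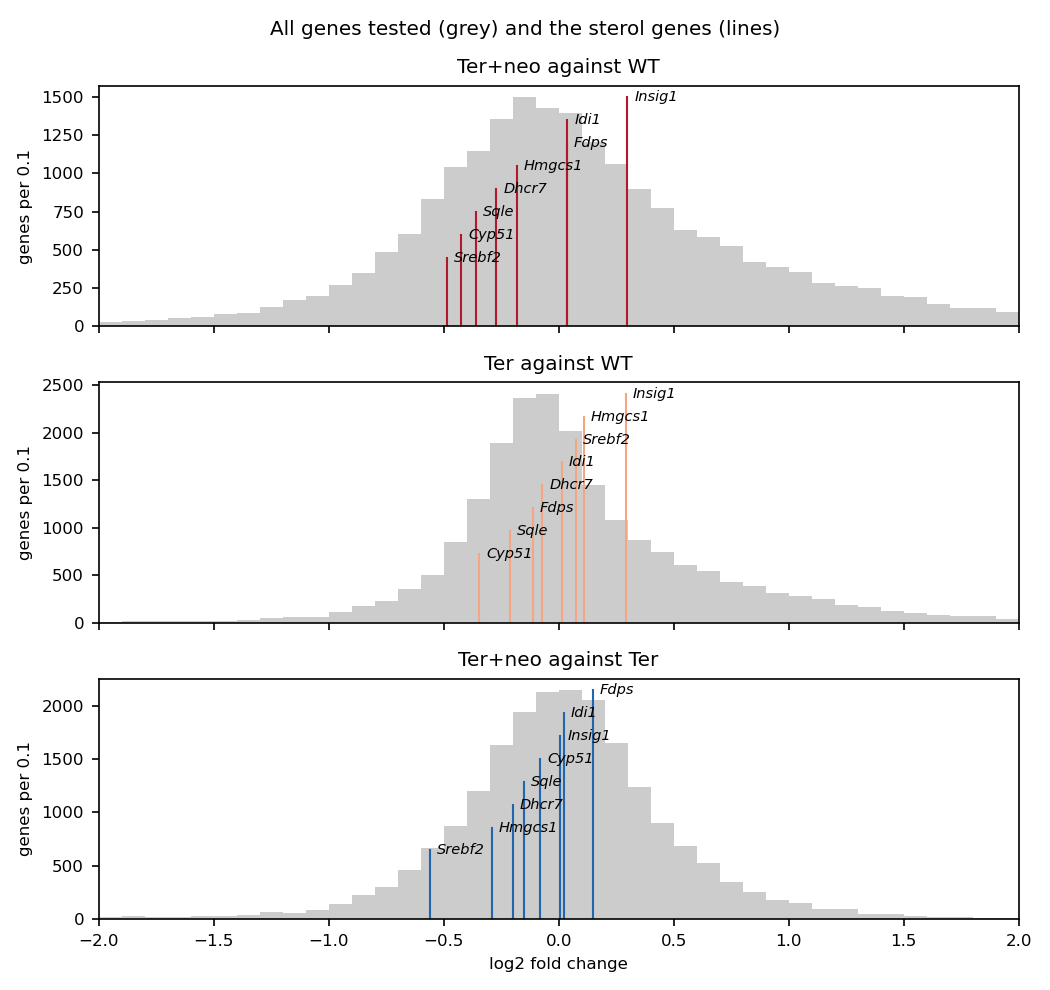
Number of genes per 0.1 of log2 fold change (grey bars, 20643 genes, shown from -2 to 2) in the comparisons of Ter+neo with WT, Ter with WT, and Ter+neo with Ter, with the 8 genes as labelled lines whose heights carry no value. The 8 genes lie between -0.56 (*Srebf2* in Ter+neo against Ter) and 0.30 (*Insig1* in Ter+neo against WT).

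Of 13 other enzymes of cholesterol synthesis outside the 8 genes, 0 were higher and 5 lower in Ter+neo against WT, with a median log2 fold change of -0.21. Of all genes, 26.7% passed lower in Ter+neo against WT and 11.0% in Ter against WT. Among genes expressed at or above the lowest of the 8, 38.5% passed lower in Ter+neo against WT. *Mvk*, *Pmvk*, *Tm7sf2* and *Ebp* did not reach that level. The 5 lower enzymes are 38.5% of the 13, beside 54.4% of all genes that passed in either direction. They were *Acat2*, *Pmvk*, *Fdft1*, *Lss* and *Tm7sf2*, and 2 of the 13 passed without WT replicate 2. In Ter against WT 0 were higher and 2 were lower (*Acat2* and *Lbr*), which is 15.4% beside 25.1% of all genes, with a median of -0.13, and 0 of the 13 passed without Ter replicate 3, Ter replicate 4 or WT replicate 2, and 1 passed without WT replicate 1. In Ter+neo against Ter 1 was higher (*Sc5d*) and 3 were lower (*Acat2*, *Fdft1* and *Lss*), which is 30.8% beside 27.7% of all genes, with a median of -0.074, and 0 of the 13 passed without Ter replicate 3. *Acat2*, the acetyl-CoA acetyltransferase that opens the pathway, had 13.0, 13.0 and 12.7 CPM in Ter+neo, 19.03 and 18.03 CPM in Ter, and 21.9 and 26.6 CPM in WT, with no overlap between any 2 genotypes. Its log2 fold change was -0.90 in Ter+neo against WT (SE 0.10, limma adjusted p = 6.7e-05) and -0.52 against Ter (SE 0.10, limma adjusted p = 0.00446). *Lss*, the lanosterol synthase, was lower in Ter+neo both against WT (-0.55, limma adjusted p = 0.00304) and against Ter (-0.51, limma adjusted p = 0.0115). *Fdft1*, the squalene synthase, was lower in Ter+neo against WT (-0.26, limma adjusted p = 0.00602), a call that did not hold once WT replicate 2 was left out (-0.19, limma adjusted p = 0.0859). *Tm7sf2*, a sterol reductase, was at a low level, with 1.24, 0.781 and 0.846 CPM in Ter+neo, 1.16 and 1.21 CPM in Ter, and 1.65 and 2.49 CPM in WT. It was lower in Ter+neo against WT (-1.09, SE 0.27, limma adjusted p = 0.00654), a call that did not stand with WT replicate 2 left out (-0.80, limma adjusted p = 0.0831), and did not pass in Ter (-0.76, limma adjusted p = 0.0865).

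**Figure D4:**
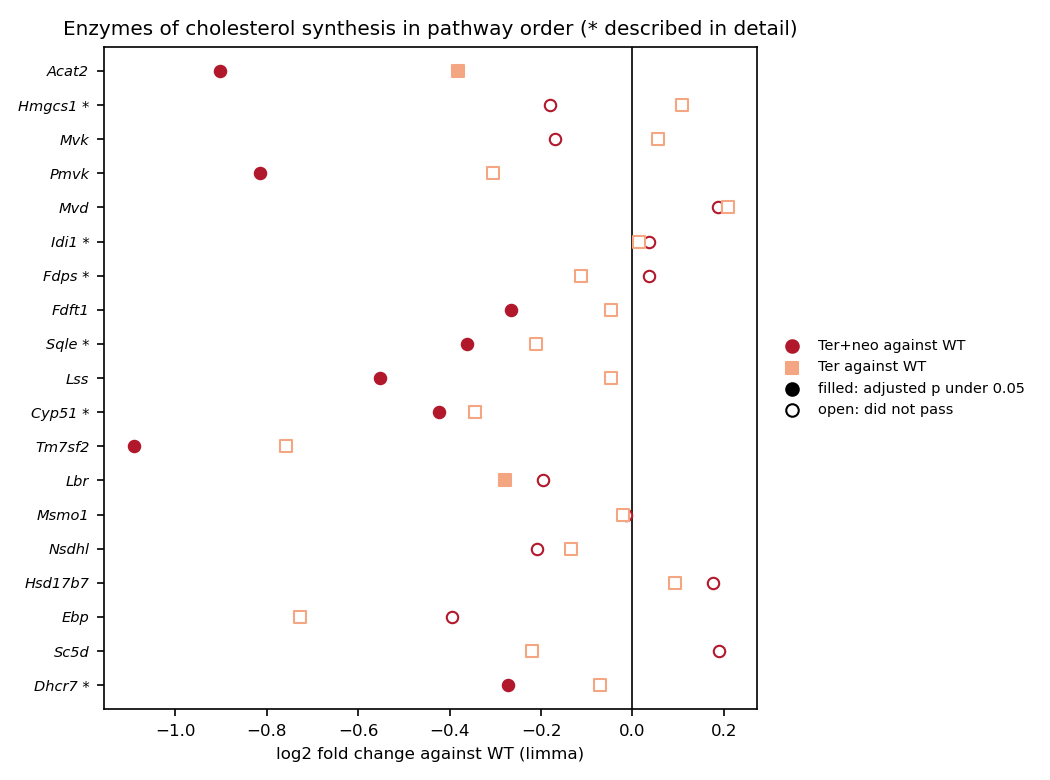
Log2 fold change against WT (horizontal axis) of 19 enzymes of cholesterol synthesis in pathway order from top to bottom, for Ter+neo (circles) and Ter (squares), filled where limma's adjusted p was under 0.05. The 8 filled circles, *Sqle*, *Cyp51* and *Dhcr7* among them, all lie left of 0, from -1.09 (*Tm7sf2*) to -0.26 (*Fdft1*).

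Of 9 genes of sterol sensing and SREBP processing outside the 8, 0 were higher and 4 lower in Ter+neo against WT, and 0 were higher and 4 lower in Ter against WT. The share that passed lower was 44.4% in each, beside 26.7% of all genes in Ter+neo and 11.0% in Ter. In either direction 54.4% and 25.1% of all genes passed. *Srebf1*, whose SREBP1 acts mainly on fatty acid genes, had 29.5, 27.8 and 27.5 CPM in Ter+neo, 32.5 and 33.4 CPM in Ter, and 45.5 and 45.5 CPM in WT. It was lower in both mutants against WT, at -0.69 in Ter+neo (SE 0.07, limma adjusted p = 4.99e-05) and -0.47 in Ter (SE 0.08, limma adjusted p = 0.00357). The proteases that release SREBPs in the Golgi were lower too. *Mbtps2* was at -0.64 in Ter+neo (limma adjusted p = 0.000709) and -0.47 in Ter (limma adjusted p = 0.0189), and *Mbtps1* at -0.30 in Ter+neo (limma adjusted p = 0.00225) and -0.24 in Ter (limma adjusted p = 0.0276). *Nr1h2*, which encodes the oxysterol receptor LXR beta, was lower in Ter (-0.26, limma adjusted p = 0.0409) and did not pass in Ter+neo (-0.14, limma adjusted p = 0.122). Each of these 3 calls in Ter was lost without Ter replicate 3, Ter replicate 4 or WT replicate 2 (limma adjusted p = 0.0839 to 0.213), and those of *Mbtps1* and *Nr1h2* also without WT replicate 1 (limma adjusted p = 0.0586 and 0.157).

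Of 16 genes of cholesterol uptake, transport and storage, 4 were higher and 6 lower in Ter+neo against WT, and 3 were higher and 4 lower in Ter against WT. The share that passed was 62.5% in Ter+neo, beside 54.4% of all genes, and 43.8% in Ter, beside 25.1%. *Abcg1*, a sterol exporter, was lower in Ter+neo (-0.97, limma adjusted p = 7.05e-05) and in Ter (-0.62, limma adjusted p = 0.00612), the Ter call being lost without Ter replicate 4 or WT replicate 2 (limma adjusted p = 0.0507 and 0.0629). *Gramd1c*, a sterol transfer protein, was higher in Ter+neo (1.47, limma adjusted p = 4.02e-05) and in Ter (0.90, limma adjusted p = 0.0045). Its relative *Gramd1a* had 11.4, 11.8 and 12.9 CPM in Ter+neo, 17.96 and 18.5 CPM in Ter, and 15.97 and 17.7 CPM in WT. It was lower in Ter+neo against WT (-0.48, limma adjusted p = 0.00202) and against Ter (-0.60, limma adjusted p = 0.00186), and did not pass in Ter against WT (0.12, limma adjusted p = 0.449). *Lipa*, the lysosomal lipase that frees cholesterol from its esters, was lower in Ter+neo (-0.23, limma adjusted p = 0.0237) and in Ter (-0.38, limma adjusted p = 0.00972). With WT replicate 2 left out neither call held (limma adjusted p = 0.178 and 0.0942), nor did that in Ter+neo without Ter+neo replicate 6 (limma adjusted p = 0.0558) or that in Ter without Ter replicate 4 (limma adjusted p = 0.0887).

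**Figure D5:**
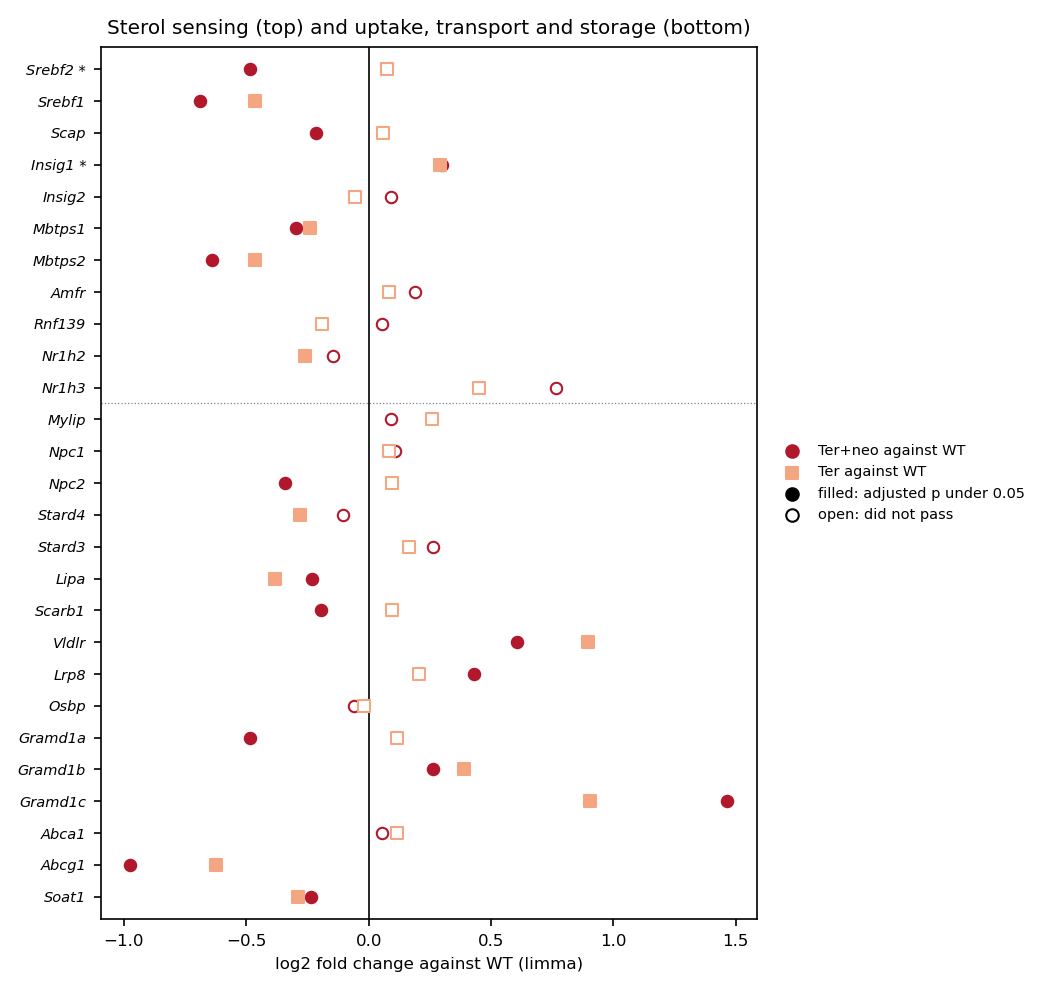
Log2 fold change against WT (horizontal axis) of 11 genes of sterol sensing and SREBP processing (above the dotted line, *Srebf2* and *Insig1* included) and 16 genes of cholesterol uptake, transport and storage (below it), for Ter+neo (circles) and Ter (squares), filled where limma's adjusted p was under 0.05. *Abcg1* at -0.97 and *Gramd1c* at 1.47 in Ter+neo lie farthest from 0 on either side.

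Of the 12 genes of the non-sterol branch, which uses isoprenoids for prenyl groups, ubiquinone and dolichol, 0 were higher and 7 lower in Ter+neo against WT, and 0 were higher and 2 lower in Ter against WT. These are 58.3% and 16.7% of them, beside 26.7% and 11.0% of all genes that passed lower and 54.4% and 25.1% in either direction. *Coq2* of ubiquinone synthesis was lower in Ter+neo (-0.56, limma adjusted p = 0.00084) and in Ter (-0.55, limma adjusted p = 0.00629), and *Rabggtb*, a subunit of the Rab prenyltransferase, was at -0.36 in Ter+neo (limma adjusted p = 0.00972) and -0.43 in Ter (limma adjusted p = 0.0174). Without WT replicate 2 these calls did not pass, except that of *Coq2* in Ter+neo (limma adjusted p = 0.0608 for *Coq2* in Ter, and 0.105 and 0.145 for *Rabggtb* in Ter+neo and in Ter). In Ter, *Rabggtb* was also lost without Ter replicate 3 or 4 (limma adjusted p = 0.0542 and 0.117) and *Coq2* without Ter replicate 4 (limma adjusted p = 0.0578). *Fntb* (-0.53, limma adjusted p = 0.00193) and *Pggt1b* (-0.29, limma adjusted p = 0.0026), subunits of the farnesyl and geranylgeranyl transferases, were lower in Ter+neo and did not pass in Ter.

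Of 12 fatty acid synthesis genes, 3 were higher and 3 lower in Ter+neo against WT, and 1 was higher and 3 were lower in Ter against WT. These are 50.0% and 33.3% of them, beside 54.4% and 25.1% of all genes. *Fasn*, the fatty acid synthase, had 187, 172 and 157 CPM in Ter+neo, 207 and 192 CPM in Ter, and 262 and 277 CPM in WT. It was lower in Ter+neo (-0.65, limma adjusted p = 9.36e-05) and in Ter (-0.44, limma adjusted p = 0.00615), as were *Fads2*, a desaturase (-0.86, limma adjusted p = 6.67e-05, and -0.45, limma adjusted p = 0.0137), and *Elovl6*, an elongase (-0.48, limma adjusted p = 0.000752, and -0.35, limma adjusted p = 0.0198). The Ter calls of these 3 genes were lost without Ter replicate 4 or WT replicate 2 (limma adjusted p = 0.0599 to 0.166), and those of *Fads2* and *Elovl6* also without Ter replicate 3 (limma adjusted p = 0.0535 and 0.0804). *Acly*, which supplies cytosolic acetyl-CoA, was higher in Ter+neo against WT (0.33, limma adjusted p = 0.000821) and against Ter (0.19, limma adjusted p = 0.0299).

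The mean profile of the 8 genes over the 7 libraries, each gene centred on its own mean, was compared with that of 14197 other genes whose log2 values averaged 1 or more. The closest were *Fbh1*, *Atp6v1a*, *Znrf2*, *Dennd2c* and *Naf1*, with root mean square differences of 0.0148 to 0.0318 on the log2 scale, beside a median of 0.21. The 8 genes did not share 1 profile. By the same measure *Hmgcs1* lay closest to their mean (0.0728) and *Insig1* (0.206) and *Srebf2* (0.19) farthest. Each of the 8 is itself part of this mean, unlike the other genes. Even so, *Hmgcs1* ranked 416, *Srebf2* 6199 and *Insig1* 6926 in closeness among genes whose log2 values averaged 1 or more.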

How the data were processed

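The authors trimmed reads (Trim Galore 0.6.0), aligned them to mm10 (STAR 2.7.8) and counted reads by gene. The submitters' notes also list deepTools and edgeR. No annotation release is stated in the sources used here. As deposited by the authors, values are log2 CPM and include a small prior count. The log and the prior count were undone to obtain CPM, and 100% of values came out as whole read pairs (tolerance 1e-06). The log2 values of 20643 genes in all 7 libraries were fitted with limma 3.58.1 (R 4.3.3), with genotype as the factor and empirical Bayes moderation that follows the trend of variance on mean. Two-sided p-values were adjusted by Benjamini-Hochberg over all genes. As the deposited unit is log2, voom on the recovered read pairs stood in for a count model, and it called 3092 genes in Ter against WT, where the fit above called 5187. Genes were placed with GENCODE vM21 (GRCm38) and copies found with BLAST 2.17.0. Plots were made in Python 3.11.15 with matplotlib 3.10.9.

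The genes, the lists and the naming rule were chosen with earlier results of these data known. The rule names the 8 genes, up to 4 others from each sterol or lipid list (those of smallest p in Ter or Ter+neo against WT) and the 5 closest profiles. Some genes of these lists and of the rule are not reported here and were left out of the lists' counts. Other enzymes that passed are named where a list's count is spelled out, after their values were seen. Alternatives were no filter or 1 CPM, a pseudocount of 1, the same total per library, median-ratio scaling, 2 groups only, each library left out, voom, a minimum change of 1.5-fold, and correction of each library for trends on GC content and gene length.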

Additional observations from a re-analysis of the deposited data

How the results depend on the processing

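Of 512 log2 fold changes of the 8 genes under the 16 alternatives, 421 kept their direction and their side of the threshold, 54 lost a call, 12 gained one and 25 changed sign, none of them a called value. With a minimum change of 1.5-fold the counts that passed were 0 in every comparison among the 8 genes, and 0, 1 and 0 among the 13 other enzymes in Ter against WT, Ter+neo against WT and Ter+neo against Ter, since this test asks for a larger change. In Ter against WT (1 of the 8 genes and 2 other enzymes passed), 3 of the 8 passed with these 2 groups only and 2 after correction for GC content and gene length, voom gave 0 of the 8 and 0 of the others, and the same total per library gave 0 of the others. In Ter+neo against Ter the GC and length correction left 2 other enzymes in place of 4, and for the mean of both mutants against WT a fit of 2 groups only gave 1 of the 8 in place of 5. The cause was not tested. Of the values of the 20 other named genes, 50 lost a call in Ter against WT, 21 in Ter+neo against WT and 40 in Ter+neo against Ter, and no called value changed sign.

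Without each library in turn, the counts of the 8 genes ranged from 0 to 2 in Ter against WT, 2 to 6 in Ter+neo against WT, 1 to 3 in Ter+neo against Ter and 0 to 5 for the mean of both mutants, and those of the other enzymes from 0 to 2, 2 to 6 and 0 to 4 in the first 3 comparisons.

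The values that changed sign belonged to genes that did not pass in the comparison concerned, though some of these genes passed in another. After correction for GC content and gene length, *Idi1* was at -0.059 in Ter against WT, -0.24 in Ter+neo against WT, -0.18 in Ter+neo against Ter and -0.15 for the mean of both mutants, *Srebf2* at -0.074 in Ter against WT, *Fdps* at -0.047 in Ter+neo against WT and *Insig1* at -0.059 in Ter+neo against Ter. With the same total per library, *Dhcr7* was at 0.0083 in Ter against WT, *Idi1* at -0.045 and *Insig1* at -0.060 in Ter+neo against Ter, and *Hmgcs1* at 0.0094 and *Fdps* at 0.0069 for the mean of both mutants. Without each library in turn, *Idi1* ranged from -0.038 to 0.067 in Ter against WT, -0.045 to 0.12 in Ter+neo against WT, -0.060 to 0.10 in Ter+neo against Ter and -0.027 to 0.078 for the mean of both mutants. *Fdps* ranged from -0.072 to 0.14 in Ter+neo against WT and -0.15 to 0.069 for the mean, *Insig1* from -0.060 to 0.078 in Ter+neo against Ter and *Hmgcs1* from -0.12 to 0.046 for the mean.

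No paired analysis was possible because each library has a replicate number of its own, from 1 to 7. With 2 libraries in Ter and in WT, leaving 1 out leaves a lone library that is assumed to vary like the other groups.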
